A study of Homo sapiens with 2 samples.

Results

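The transcripts described here encode NUFIP2, the fragile X protein family and the core proteins of stress granules. The 10 genes are NUFIP2, FMR1, FXR1, FXR2, CYFIP1, G3BP1, G3BP2, CAPRIN1, UBAP2L and ATXN2L, taken by symbol from a list made with earlier results of these data known. Of these, 9 had a row in both deposited tables, among 7218 genes with a row in both and 10145 with a row in either. FMR1 was not analysed here. Every value below concerns the messenger RNA of a gene, recovered with a tagged protein, and not the protein that the gene encodes.

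FMRP, the product of FMR1, and its paralogues FXR1 and FXR2 are KH-domain RNA-binding proteins that travel with polyribosomes and regulate translation. NUFIP2 was found as a partner of FMRP and also works with the Roquin proteins, which promote decay of messenger RNAs. CYFIP1 links FMRP to the cap-binding protein eIF4E and is also a subunit of the WAVE complex, which drives actin branching. When translation initiation stops, G3BP1 and G3BP2 condense with untranslated messenger RNAs into stress granules, together with CAPRIN1, UBAP2L and ATXN2L.

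The data are PAR-CLIP libraries, in which 4-thiouridine is built into RNA, crosslinked to bound protein with UV light and read as T-to-C conversions. One group is HEK293 cells, a human embryonic kidney line, overexpressing Flag/HA-tagged ZC3H7B, and the other is the same line overexpressing Flag/HA-tagged ZC3H7A. Both proteins are CCCH zinc finger proteins, and both groups received doxycycline at 1 µg/mL for 24 h, 4-thiouridine at 100 µM for 16 h and light of 365 nm. The growth protocol names both HEK293 and Flp-In T-REx 293 cells, and the labels do not say how many clones were used. The comparison asks on which of these transcripts, and on which of their regions, each protein was recovered. Each protein had 1 library, and none served as a control, so no difference was tested and no p-value is given.

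A cluster is a group of overlapping reads, and a distinct read is a read sequence counted once however often it was sequenced. The ZC3H7B library held 2409465 reads on 9159 genes, made of 1212989 distinct reads in 99805 clusters. The ZC3H7A library held 3779662 reads on 8204 genes, made of 300342 distinct reads in 51808 clusters. A distinct read was therefore seen 1.99 times on average in the ZC3H7B library and 12.6 times in the ZC3H7A library. Intervals are exact 95% intervals that cover counting error only, and PCR copies make those on reads too narrow. Counts were not divided by the length of a transcript or region, so ratios compare the libraries for 1 gene. Ranks and region shares set genes side by side without regard to length, and are not per base. The tables hold no expression, so the level of each transcript in the cells was not measured and the cell line was not checked against markers.

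NUFIP2 carried the most reads of the 9 genes in both libraries. It held 7114 reads in 94 clusters in the ZC3H7B library, or 0.295% of all reads (0.288 to 0.302%), and 22141 reads in 79 clusters in the ZC3H7A library, or 0.586% (0.578 to 0.594%). By reads it stood in place 7 of the 9159 genes with ZC3H7B and in place 4 of the 8204 genes with ZC3H7A, and by distinct reads in places 5 and 4. These places order reads and not reads per base. NUFIP2 made up 52.0% of the reads of the 9 genes in the ZC3H7B library and 77.4% in the ZC3H7A library, so sums over the group mostly describe NUFIP2.

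The clusters of NUFIP2 lay almost entirely in its 3' UTR and coding sequence. The 3' UTR held 81 of 94 clusters in the ZC3H7B library, 86.2% (77.5 to 92.4%), and 63 of 79 in the ZC3H7A library, 79.7% (69.2 to 88.0%). Coding sequence held 12 clusters, 12.8% (6.77 to 21.2%), with ZC3H7B and 16 clusters, 20.3% (12.0 to 30.8%), with ZC3H7A. The intervals of the libraries overlapped for both regions. With ZC3H7B 1 cluster lay at the stop codon, and no cluster lay in an intron or in the 5' UTR in either library. By the number of clusters in 3' UTRs, NUFIP2 stood in place 2 of all genes in each library. Region lengths were not used, so neither this place nor the shares above are per base.

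Reads on NUFIP2 were spread unevenly over its clusters. Its mean of 75.7 reads per cluster stood beside a median of 38 in the ZC3H7B library, and its mean of 280.3 beside a median of 128 in the ZC3H7A library. The mean was thus 1.99 and 2.19 times the median, where the median gene with at least 5 clusters had 1.39 and 1.29. This ratio was lower than that of NUFIP2 in 86.9% of such genes with ZC3H7B and in 93.1% with ZC3H7A. The reads were thus skewed towards some of the NUFIP2 clusters, and the tables do not give cluster positions. By number of clusters NUFIP2 stood in places 8 with ZC3H7B and 4 with ZC3H7A. It was not compared with genes of like cluster number alone.

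**Figure D1:**
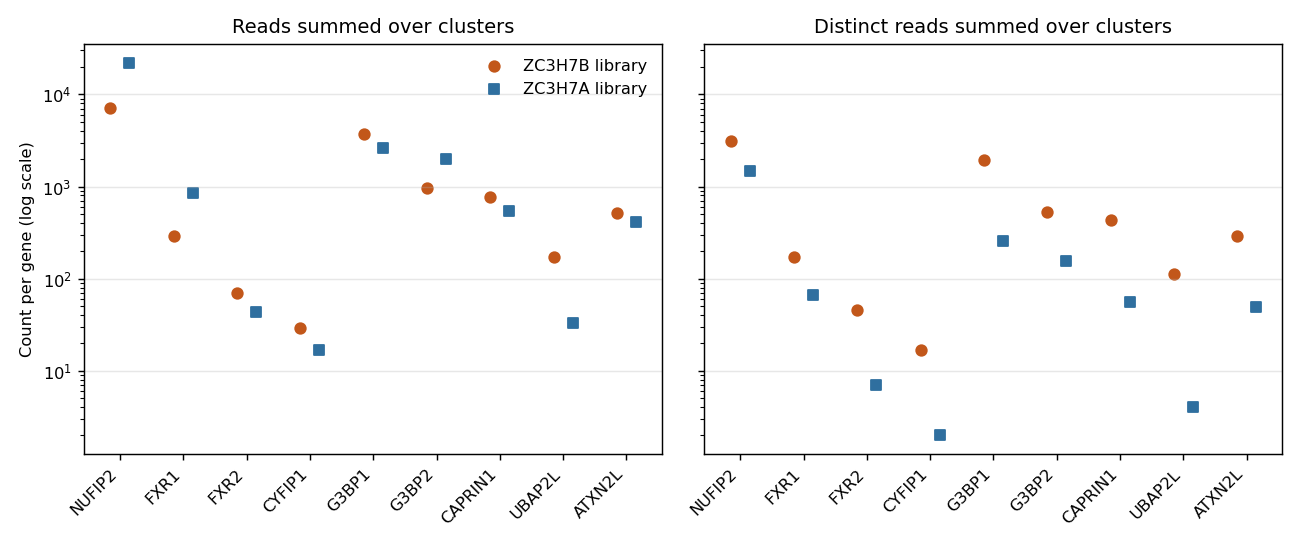
Reads (left) and distinct reads (right) summed over clusters for each of the 9 genes, on a log axis, with circles for the ZC3H7B library and squares for the ZC3H7A library, 1 library each. Reads run from 29 to 7114 with ZC3H7B and from 17 to 22141 with ZC3H7A, and all 9 genes have more distinct reads in the ZC3H7B library, which holds more distinct reads in all.

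Among the fragile X paralogues, FXR1 had more reads than the median gene of each library and FXR2 had fewer, without division by transcript length. FXR1 had 291 reads in 23 clusters in the ZC3H7B library and 845 reads in 18 clusters in the ZC3H7A library. FXR2 had 69 reads in 6 clusters with ZC3H7B and 43 reads in 2 clusters with ZC3H7A. The FXR2 counts lay below the median gene of each library, which had 82 reads with ZC3H7B and 135.5 with ZC3H7A.

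Many FXR1 clusters were placed in introns by the authors' annotation, in both libraries. Introns held 9 of its 23 clusters with ZC3H7B, 39.1% (19.7 to 61.5%), and 7 of 18 with ZC3H7A, 38.9% (17.3 to 64.3%). Over all genes introns held 6.13% of clusters in the ZC3H7B library and 6.18% in the ZC3H7A library. Among genes with at least 5 clusters, 6.46% with ZC3H7B and 6.22% with ZC3H7A had an intron share of at least 30%. Coding sequence held 8 FXR1 clusters in each library, and the 3' UTR held 5 with ZC3H7B and 1 with ZC3H7A. In FXR2, coding sequence held 3 of 6 clusters with ZC3H7B and both of the 2 with ZC3H7A, and the 3' UTR held 2 clusters with ZC3H7B.

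CYFIP1 had the fewest reads of the 9 genes. It had 29 reads in 4 clusters in the ZC3H7B library, made of 17 distinct reads, and 17 reads in 1 cluster in the ZC3H7A library, made of 2 distinct reads. Of the 4 clusters with ZC3H7B, 2 lay in coding sequence, 1 in the 3' UTR and 1 in an intron, and the single cluster with ZC3H7A lay in coding sequence. At this depth no difference between the libraries was detectable for CYFIP1 in distinct reads.

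The stress granule nucleators G3BP1 and G3BP2 differed from each other in 3' UTR share mainly in the ZC3H7A library. G3BP1 had 3757 reads in 63 clusters in the ZC3H7B library and 2613 reads in 49 clusters in the ZC3H7A library. Its 3' UTR held 55 clusters with ZC3H7B, 87.3% (76.5 to 94.4%), and 37 with ZC3H7A, 75.5% (61.1 to 86.7%). Only NUFIP2 had more 3' UTR clusters among the 9 genes. G3BP1 stood in places 24 and 22 of all genes by that number, again without division by length.

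G3BP2 had 955 reads in 35 clusters in the ZC3H7B library and 1976 reads in 25 clusters in the ZC3H7A library. Its 3' UTR held 25 clusters with ZC3H7B, 71.4% (53.7 to 85.4%), and 10 with ZC3H7A, 40.0% (21.1 to 61.3%). Its coding sequence held 7 of 35 clusters with ZC3H7B (8.44 to 36.9%), and 11 of 25 with ZC3H7A, 44.0% (24.4 to 65.1%). With ZC3H7A, the 3' UTR interval of G3BP2 lay just into that of G3BP1 (61.3% against 61.1%), and with ZC3H7B the intervals of the paralogues overlapped widely. G3BP1 and G3BP2 share coding sequence similarity, and how the authors treated reads that match more than 1 gene is not given in the sources used here.

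CAPRIN1, the partner that binds G3BP proteins in stress granules, had the largest difference in coding share of the 6 genes with at least 5 clusters in each library. It had 766 reads in 37 clusters in the ZC3H7B library and 540 reads in 12 clusters in the ZC3H7A library. Coding sequence held 8 clusters in each library. The remaining clusters differed, with 14 in introns and 12 in the 3' UTR with ZC3H7B, and 1 in an intron and 1 in the 3' UTR with ZC3H7A. The coding share was thus 21.6% (9.83 to 38.2%) with ZC3H7B and 66.7% (34.9 to 90.1%) with ZC3H7A, and the intron share 37.8% (22.5 to 55.2%) and 8.33% (0.211 to 38.5%). These intervals overlapped for both regions, for coding sequence only between 34.9% and 38.2%. Such overlap does not show that the shares are equal, and 12 clusters fix a share only loosely. The difference was not tested.

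UBAP2L and ATXN2L, which help to form stress granules, were covered mainly in coding sequence. UBAP2L had 173 reads in 15 clusters in the ZC3H7B library and 33 reads in 2 clusters in the ZC3H7A library. Coding sequence held 10 of the 15 clusters with ZC3H7B, 66.7% (38.4 to 88.2%), and both clusters with ZC3H7A. ATXN2L, the paralogue of ataxin-2, had 516 reads in 26 clusters in the ZC3H7B library and 408 reads in 14 clusters in the ZC3H7A library. Coding sequence held 16 of its 26 clusters with ZC3H7B, 61.5% (40.6 to 79.8%), and 10 of 14 with ZC3H7A, 71.4% (41.9 to 91.6%). Its 3' UTR held 5 clusters with ZC3H7B and 3 with ZC3H7A, and the intervals of the libraries overlapped widely.

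**Figure D2:**
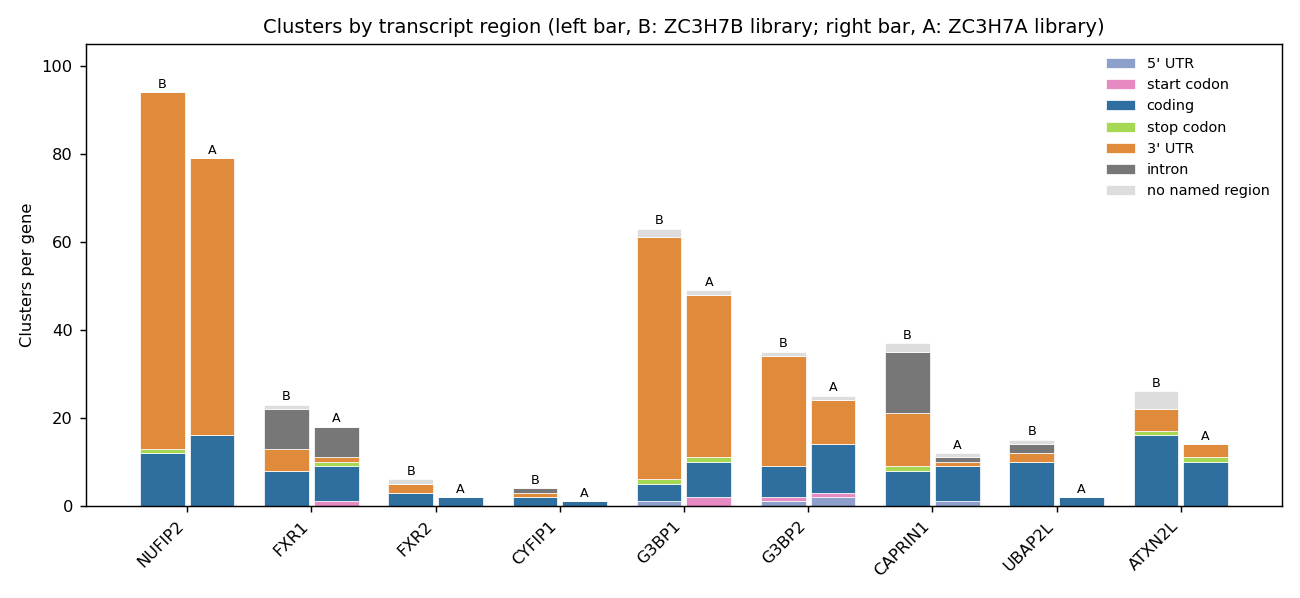
Number of clusters per gene, stacked by transcript region, with the ZC3H7B library as the left bar (B) and the ZC3H7A library as the right bar (A) of each gene. NUFIP2 and G3BP1 are mostly 3' UTR in both bars, FXR1 has introns in both (9 and 7 clusters), and CAPRIN1 has 14 intron clusters in the left bar and 1 in the right.

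All 9 genes had more 3' UTR clusters in the ZC3H7B library. This was common in the libraries, since 69.6% of 7168 genes compared (genes in both tables with at least 20 reads summed) had more there, and 6.46% had more with ZC3H7A. Coding clusters were more numerous with ZC3H7B for 4 of the 9 genes, with ZC3H7A for 3 and equal for 2. Over all genes compared these shares were 42.7% with ZC3H7B and 28.7% with ZC3H7A. Intron clusters were more numerous with ZC3H7B for 4 genes, with ZC3H7A for 0 and equal for 5, beside 18.4% and 9.15% of all genes compared. Summed over the 9 genes, the 3' UTR held 188 clusters with ZC3H7B and 115 with ZC3H7A, 1.63-fold more, where all genes of the libraries had 2.70-fold more. Coding sequence held 70 clusters with ZC3H7B and 66 with ZC3H7A, 1.06-fold more, beside 1.33-fold over all genes. Without NUFIP2 these ratios were 2.06 for the 3' UTR and 1.16 for coding sequence.

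As shares, all 6 genes with at least 5 clusters in each library had a lower coding share with ZC3H7B, as did 73.4% of 3175 such genes. The difference in coding share, ZC3H7B minus ZC3H7A, was -7.49 percentage points for NUFIP2, -9.66 for FXR1, -9.89 for ATXN2L and -9.98 for G3BP1. The median gene stood at -10.4, with quartiles of -22.0 and 0, so these 4 lay close to it. G3BP2 stood at -24.0 and CAPRIN1 at -45.0, and 4.03% of the genes had a more negative difference than CAPRIN1. The 3' UTR share was higher with ZC3H7B for 5 of the 6 genes, beside 73.8% of all, with ATXN2L at -2.20 points as the exception. G3BP2, at 31.4 points, had a larger 3' UTR difference than 84.9% of the genes.

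**Figure D3:**
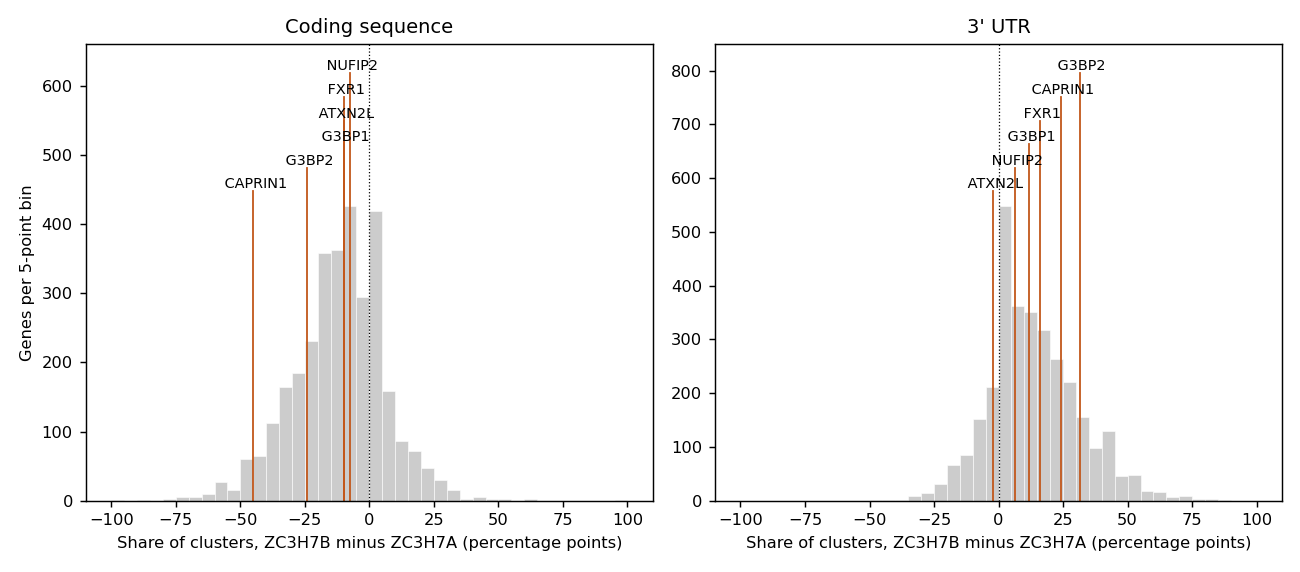
Grey bars count the 3175 genes with at least 5 clusters in each library by the difference in their share of clusters, ZC3H7B minus ZC3H7A, in percentage points, for coding sequence (left) and 3' UTR (right). Vertical lines mark the 6 genes described here: 4 coding differences lie between -7.49 and -9.98 near the middle of the bars, and CAPRIN1 lies in the left tail at -45.0.

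Reads were then compared between the proteins as log2 ratios of ZC3H7B over ZC3H7A, scaled so that the median of the 7168 genes is 0. A gene counted as higher in a library when its whole interval lay beyond 2-fold. UBAP2L was the only one of the 9 genes higher with ZC3H7B, at 2.88 (2.34 to 3.47), and NUFIP2 the only one higher with ZC3H7A, at -1.15 (-1.18 to -1.11). Over all genes compared, 18.2% were higher with ZC3H7B and 18% with ZC3H7A, and a count of 1 of 9 cannot be told from such shares. With distinct reads these counts were 1 of 9 and 0 of 9, beside 7.28% with ZC3H7B and 10.1% with ZC3H7A, and by mean reads per cluster 1 (G3BP1) and 0, beside 6.18% and 4.65%. Intervals on mean reads per cluster cover the counting error of reads alone and take the number of clusters as fixed, so they are too narrow and the calls made from them are too many. Counted in clusters no member was beyond 2-fold, beside 0.321% and 0.223% of all genes. Scaled to library totals 2 were higher with ZC3H7B (UBAP2L and G3BP1) and 0 with ZC3H7A, beside 21.2% and 15.5%. Among genes with at least 100 reads summed, 8 members could be compared, with 1 in each direction beside 18.8% and 19.7%. The median of the 9 ratios was 1.00 by reads, 0.66 by distinct reads and 0.35 by mean reads per cluster, with 6 of the 9 above 0 in each. Counted in clusters it was -0.03, with 4 above 0 and 5 below, so the side on which the group lay depended on the measure.

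The fragile X paralogues lay on opposite sides of 0. FXR1 stood at -1.05 (-1.24 to -0.85), and FXR2 at 1.18 (0.61 to 1.76). With distinct reads FXR1 stood at -0.70 (-1.11 to -0.27), still below 0, and FXR2 at 0.66 (-0.50 to 2.05), an interval that holds 0. CYFIP1 stood at 1.26 (0.35 to 2.22) with reads and at 1.03 (-1.04 to 4.19) with distinct reads.

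The G3BP paralogues lay on opposite sides of 0 as well by reads and distinct reads. G3BP1 stood at 1.02 (0.94 to 1.09), and G3BP2 at -0.56 (-0.67 to -0.44). With distinct reads they stood at 0.85 (0.67 to 1.05) and -0.31 (-0.57 to -0.04), so each kept its side of 0. G3BP1 was higher with ZC3H7B by mean reads per cluster, at 1.63 (1.56 to 1.70), and lay on the other side when clusters were counted, at -0.56 (-1.13 to 0.01). G3BP2 stood at -0.07 (-0.18 to 0.05) by mean reads per cluster and at -0.44 (-1.22 to 0.36) by clusters. By clusters both paralogues thus lay below 0, with intervals that hold 0.

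CAPRIN1 stood at 1.00 (0.84 to 1.16) and ATXN2L at 0.83 (0.64 to 1.02) on the same scale of reads. With distinct reads they stood at 0.91 (0.51 to 1.34) and 0.49 (0.05 to 0.96). When clusters were counted ATXN2L lay at -0.03 (-1.02 to 1.02), so its side of 0 depended on the measure.

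The ratio of UBAP2L rested on few counts in 1 library. It had 112 distinct reads with ZC3H7B and 4 distinct reads with ZC3H7A. With distinct reads its ratio was 2.75 (1.36 to 4.65), still beyond 2-fold, where 7.28% of genes were. By mean reads per cluster it was 0.95 (0.41 to 1.53), and by clusters 1.98 (-0.12 to 5.15), neither beyond 2-fold. The ratio of UBAP2L was higher than that of 96.4% of genes by reads.

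The ratio of NUFIP2 lay close to the 2-fold line. It was -0.99 (-1.08 to -0.90) with distinct reads, -0.42 (-0.46 to -0.38) by mean reads per cluster, -0.68 (-1.12 to -0.22) by clusters and -0.99 (-1.03 to -0.95) when reads were scaled to library totals. It was below 0 in each of these, and its interval no longer lay beyond 2-fold in any of them. By reads, 23.2% of genes had a more negative ratio.

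**Figure D4:**
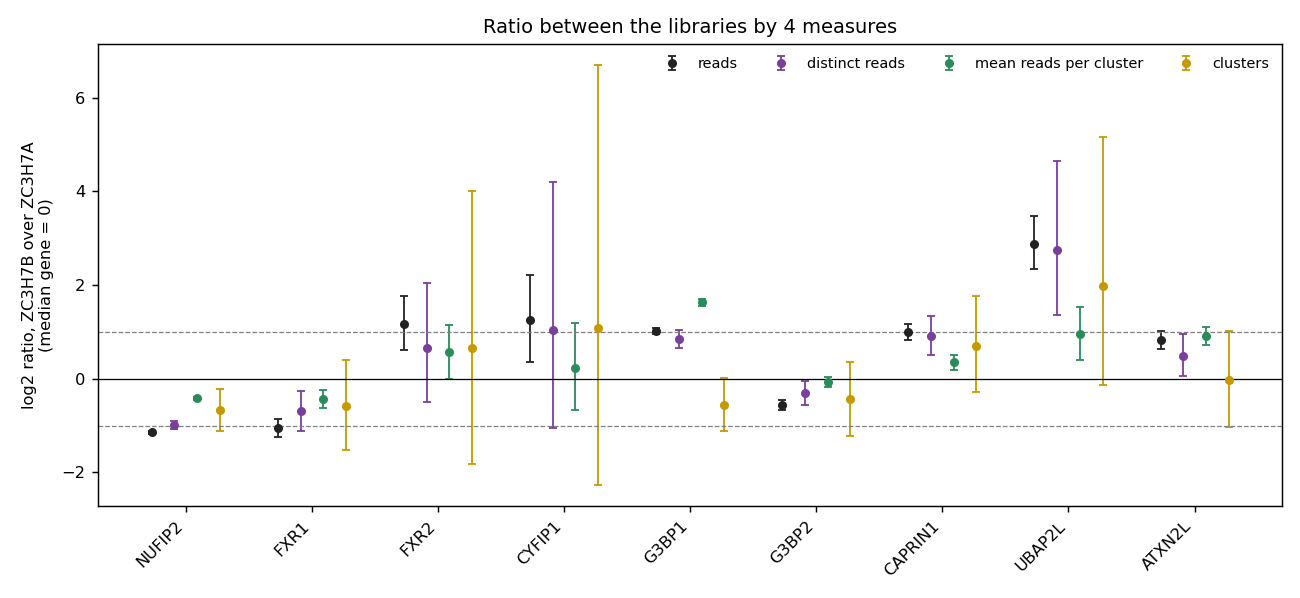
Log2 ratio of ZC3H7B over ZC3H7A for each gene by reads, distinct reads, mean reads per cluster and clusters, each scaled to the median gene, with exact 95% counting intervals as bars (for mean reads per cluster, of the reads alone) and 2-fold as dashed lines. NUFIP2, FXR1 and G3BP2 lie below 0 by all 4 measures, UBAP2L lies above, and G3BP1 changes side when clusters are counted (-0.56). Among these genes only the NUFIP2 interval leaves out 0 by clusters. The G3BP2 interval holds 0 by mean reads per cluster as well.

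T-to-C conversion, the sign of crosslinking, was high on all 9 genes. The median over the clusters of a gene ran from 89% to 100% in the ZC3H7B library and from 95% to 100% in the ZC3H7A library. Averaged over clusters, the share of reads with a conversion ran from 86.1% (G3BP1) to 95.8% (FXR1) in the ZC3H7B library, where the median gene had 91.1%. In the ZC3H7A library it ran from 89.6% (NUFIP2) to 100% (FXR2, CYFIP1 and UBAP2L), where the median gene had 97.4%. The 3 genes at 100% had 2 to 7 distinct reads there, and a share of 100% is easier to reach with few reads. NUFIP2 had 88.2% with ZC3H7B and 89.6% with ZC3H7A, and 26.4% and 17.1% of genes had less. Any threshold of the cluster caller on conversion would raise these values, and none is given in the sources used here.

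The number of reads per distinct read differed more between the libraries than between the genes. NUFIP2 had 2.28 reads per distinct read with ZC3H7B and 14.8 with ZC3H7A. The other 8 genes had 1.5 to 1.94 with ZC3H7B and 6.14 to 12.6 with ZC3H7A. NUFIP2 therefore had the most reads per distinct read of the 9 in each library. The median gene had 1.74 with ZC3H7B and 10.6 with ZC3H7A. Whether repeated reads were PCR copies was not tested. The part of this in the NUFIP2 read ratio was not tested beyond the count of distinct reads above.

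The genes whose clusters were distributed most like those of NUFIP2 were looked for among 488 other genes with at least 20 clusters in each library. Likeness was the summed difference in the shares of 5' UTR, coding and 3' UTR clusters over both libraries. MON1B was nearest, at 3.77 percentage points, with 26 of 30 clusters in the 3' UTR with ZC3H7B and 16 of 20 with ZC3H7A. QKI followed at 5.0, MDM4 at 8.05, SP1 at 9.70 and ABL2 at 11.2. MON1B and QKI each had 20 clusters with ZC3H7A, the minimum used, and so few clusters fix a share only loosely. The distances carry no interval, so the order of the nearest genes is not fixed by these counts. The median gene lay 101.4 points away. G3BP1 stood in place 25, at 17.3 points, and G3BP2 in place 236, at 96.3 points.

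Genes of proteins that work with these 9 were compared in the same way. Of 24 further stress granule genes, 21 could be compared, and their median log2 ratio was 0.30 by reads, 0.12 by distinct reads, 0.013 by mean reads per cluster and 0.27 by clusters. With ZC3H7B 3 were higher and with ZC3H7A 2, that is 3 and 2 of 21 beside the background of 18.2% and 18%. Those higher with ZC3H7B were PRRC2B at 2.36 (2.17 to 2.56), USP10, a deubiquitinase that binds G3BP proteins, at 1.62 (1.09 to 2.17), and FAM120A at 1.41 (1.01 to 1.82). Those higher with ZC3H7A included LSM14B at -2.34 (-2.78 to -1.92). With distinct reads PRRC2B was beyond 2-fold, at 2.04, and the other 4 were not. With ZC3H7A, USP10 had 4 distinct reads in 1 cluster and FAM120A had 7 in 3 clusters. FAM120A, whose interval began next to 2-fold, was also not beyond it under TMM scaling or a minimum of 100 reads. By mean reads per cluster none of the 3 genes higher with ZC3H7B by reads was beyond 2-fold, and 2 others were.

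None of the 4 stress granule genes with the most reads was beyond 2-fold. Among them, EIF4G1, the scaffold of the cap-binding complex, had 1414 reads in the ZC3H7B library and 2718 in the ZC3H7A library, a log2 ratio of -0.45 (-0.54 to -0.36). TARDBP, which encodes TDP-43, stood at -0.53 (-0.63 to -0.43). PRRC2A had a row with ZC3H7A alone, with 23 reads, and ATXN2 with ZC3H7B alone, with 5 reads. LSM14A was not analysed here.

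Of 13 partners of FMRP and CYFIP1, 12 could be compared, and their median log2 ratio was 0.10 by reads, 0.037 by distinct reads, 0.053 by mean reads per cluster, -0.022 by clusters and -0.014 with at least 100 reads summed. Its sign thus depended on the measure. By reads 1 of 12 was higher with ZC3H7B and 2 of 12 with ZC3H7A, beside the background of 18.2% and 18%. The gene higher with ZC3H7B was CYFIP2, the paralogue of CYFIP1, at 2.79 (1.88 to 3.82), with 59 reads against 12 in the ZC3H7A library. Of those higher with ZC3H7A, DHX36, a helicase that unwinds G-quadruplexes, stood at -2.20 (-2.52 to -1.89), and NUFIP1, which shares with NUFIP2 a name from its binding to FMRP, at -1.83 (-2.60 to -1.13). None of the 3 was beyond 2-fold with distinct reads. With ZC3H7A, CYFIP2 and NUFIP1 had 1 cluster each, of 3 and 7 distinct reads. WASF2, a WAVE subunit, had the most reads of this list, with 1004 in the ZC3H7B library and 658 in the ZC3H7A library, at 1.10 (0.96 to 1.25). PURA, a nucleic acid-binding protein, stood at 0.60 (0.41 to 0.79) and ABI1, a WAVE subunit, at -0.53 (-0.73 to -0.32). TOP3B was not analysed here.

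The Roquin genes RC3H1 and RC3H2, whose proteins work with NUFIP2, had most of their clusters in the 3' UTR. RC3H1 had 40 of 60 clusters there with ZC3H7B and 17 of 22 with ZC3H7A, and RC3H2 had 37 of 51 and 15 of 22. No intervals were computed for these shares, which were below the 86.2% (77.5 to 92.4%) and 79.7% (69.2 to 88.0%) of NUFIP2. Nor were they particular to the Roquin genes, since WASF2 of the FMRP and CYFIP1 partners had 22 of 24 and 13 of 14 there. Their log2 ratios were 0.28 (0.17 to 0.38) and -0.76 (-0.87 to -0.65), neither beyond 2-fold. Summed over each list, the 3' UTR held 69.4% of clusters with ZC3H7B and 72.7% with ZC3H7A for the Roquin genes, 61.2% and 38.4% for the FMRP and CYFIP1 partners, and 33.0% and 28.4% for the stress granule genes. Over all genes it held 55.8% with ZC3H7B and 39.8% with ZC3H7A.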

How the data were processed

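Both deposited tables list genes in rows. The submitters' processing notes name STAR 2.5.2a, Bowtie, cutadapt and build hg19, and the cluster caller is not given in the sources used here. Per the file headers, the tables hold counts of clusters, reads and distinct reads summed over clusters, and clusters per region. The exon column was read as coding sequence, because rows with 1 cluster had it there exactly when their class was coding (387 of 387 with ZC3H7B, 730 of 730 with ZC3H7A). The authors' T-to-C fraction is a median over clusters, and their T-to-C score is its sum, divided here by the number of clusters. The deposited signal columns are medians of reads and distinct reads per cluster. A deposited log10 conversion column was not used.

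Rows of repeats, tRNAs and generic small RNAs were left out (407 of 9566 with ZC3H7B, 282 of 8486 with ZC3H7A). Groups came from the sample titles. Ratios carry exact intervals conditional on the sum of both counts, and shares exact Clopper-Pearson intervals. Clusters were called per library, so sums move with how much was called, and covered lengths were not used. All symbols in the lists matched the RefSeq table of GRCh38.p14, used for names alone.

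Named genes are the 10 members, the 4 genes with the most reads and every gene beyond 2-fold of each related list, and the 5 genes most like NUFIP2. Some genes of the related lists enter the counts and are not reported here by name. Members and lists were chosen with earlier results of these data known. Alternatives were distinct reads, mean reads per cluster, clusters, scaling to totals or by TMM, other minimums, named regions, and other ranks. The ratio step was tested on simulated data. Python 3.11.15, pandas 2.3.3, numpy 2.4.6, scipy 1.17.1, matplotlib 3.10.9 and, for TMM alone, edgeR 4.0.16 in R 4.3.3 were used.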

Additional observations from a re-analysis of the deposited data

How the results depend on the processing

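No paired analysis was possible because each protein had 1 library. Of 62 alternative values of the 9 genes' log2 ratios, 39 lay within the interval on reads, 21 lay outside it with the same sign and 2 changed sign, both when clusters were counted: G3BP1 at -0.56 and ATXN2L at -0.033. Among the 9 genes, those higher with ZC3H7B numbered 2 with scaling to totals (G3BP1 joined UBAP2L) and 0 with clusters, in place of 1. Those higher with ZC3H7A numbered 0 with distinct reads, mean reads per cluster, clusters or scaling to totals, in place of 1. Among the stress granule genes, those higher with ZC3H7B numbered 2 with TMM, a minimum of 100 reads or mean reads per cluster, 1 with distinct reads and 0 with clusters, in place of 3, and those higher with ZC3H7A numbered 1 with mean reads per cluster and 0 with distinct reads or clusters, in place of 2. Among the FMRP and CYFIP1 partners, those higher with ZC3H7B numbered 2 with scaling to totals and 0 with distinct reads, clusters or a minimum of 100 reads, in place of 1, and those higher with ZC3H7A numbered 1 with mean reads per cluster or scaling to totals and 0 with distinct reads or clusters, in place of 2. Clusters and distinct reads are fewer than reads and give wider intervals; otherwise the cause was not tested. Over all genes compared, those higher with ZC3H7B and ZC3H7A numbered 1306 and 1293 with reads, 522 and 724 with distinct reads, 443 and 333 with mean reads per cluster, and 23 and 16 with clusters. Scaling to totals moved the median of all genes by 0.16. Under TMM, 17.3% of all genes compared were higher with ZC3H7B and 18.5% with ZC3H7A, beside 18.2% and 18% by reads. These shares were 21.2% and 15.5% after scaling to totals. The minimum of 100 reads gave 18.8% and 19.7%. The 36 coding and 3' UTR shares stayed within their intervals when clusters without a named region were left out. Of 36 ranks by distinct reads or clusters 29 lay within 1.5 times the rank by reads, and 14 of 18 mean T-to-C shares lay within 5 points of the median over clusters. FXR2, CYFIP1 and UBAP2L had 2 to 7 distinct reads with ZC3H7A, which limits any statement on them.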

Other observations

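Some related genes had clusters in regions that were rare in these libraries, and they were picked out after their values were seen. DDX6, a decapping activator and helicase of processing bodies, had all 3 of its clusters in the 5' UTR with ZC3H7B and 3 of 4 with ZC3H7A. Over all genes the 5' UTR held 0.772% of clusters with ZC3H7B and 3.61% with ZC3H7A. TARDBP had 11 of 39 clusters in introns with ZC3H7B and 0 of 17 with ZC3H7A. Over all genes introns held 6.13% and 6.18%. The direction varied within its list, with 4 of 40 and 0 of 30 for EIF4G1 and 7 of 60 and 4 of 24 for PRRC2C.

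WAVE subunit genes differed in the region recovered. WASF2 had 22 of 24 clusters in the 3' UTR with ZC3H7B and 13 of 14 with ZC3H7A. WASF1 had 6 of 12 and 3 of 3 in coding sequence, and NCKAP1 8 of 12 and 6 of 6. With ZC3H7B the 3' UTR held 4 clusters of each. ABI1 had 10 of 18 and 5 of 8 in coding sequence, and CYFIP2 4 of 6 and 1 of 1. In the 3' UTR, ABI2 had 14 of 17 and 5 of 8, and BRK1 5 of 5 and 3 of 5. These are counts from 1 library per protein and were not tested.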
